A study of Mus musculus with 6 samples.

Results

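The genes described here are 8 factors of muscle stem cells and muscle differentiation, Pax7, Myf5, Myod1, Myf6, Cdh15, Mef2a, Mef2c and Mef2d, taken by name from the 48795 genes of a count table of mouse quadriceps muscle. All 8 were found, and all 8 passed the filter on low counts that left 13628 genes for testing. Pax7 is the transcription factor that marks satellite cells, the resident stem cells that lie beside muscle fibres. Myf5, Myod1 and Myf6, with Myog, are the myogenic regulatory factors, basic helix-loop-helix proteins that pair with E-proteins and bind E-box motifs in muscle genes. Myf5 and Myod1 are known for commitment and activation of satellite cells, Myog for the onset of differentiation and Myf6 (MRF4) for mature fibres. The MEF2 proteins bind A/T-rich motifs and act together with the myogenic factors, under the control of calcium-dependent kinases and class II histone deacetylases, and Cdh15 encodes M-cadherin, an adhesion protein of satellite cells and myoblasts.

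RNA was sequenced from quadriceps of male C57BL/6 mice aged 20 weeks. The MERKO group carried a deletion of the estrogen receptor ERα (gene Esr1) that the labels call muscle-specific, and the control group was wild type, with 3 libraries in each. The promoter that drives the deletion is not given in the sources used here, nor is it said whether a library comes from 1 animal or several, so the p-values cover only the variation among the libraries, which may be technical. Whole muscle was used, and a lower level of a gene can mean fewer cells of a type or less RNA per cell, which cannot be told apart.

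Total counts ranged from 14935532 to 44282448 per library, of which a ribosomal RNA gene model took 0.0433% to 32.4%. Esr1 had 6.75, 9.43 and 7.46 CPM (read counts scaled to the TMM-adjusted library size) for MERKO 1 to 3, against 25.1, 34.1 and 31.1 CPM for control 1 to 3. It fell by 1.95 on the log2 scale (SE 0.16, adjusted p = 0.0262, edgeR). Leaving out a library ended this call in 4 cases, with an adjusted p of 0.102 (MERKO 1 left out), 0.0576 (MERKO 2), 0.109 (control 2) and 0.0632 (control 3). Slow fibre markers summed to 546 CPM in MERKO 1 and 567 CPM in control 1, while the other 4 libraries ranged from 45.6 to 56.8 CPM. Markers of tendon were higher in MERKO in 8 of 9 genes (summed level 84.7 to 416 CPM in MERKO, 29.8 to 85.7 CPM in control), Schwann cell markers in 8 of 8 (38.1 to 58.4 CPM against 28.1 to 35.9 CPM), and adipocyte markers in 0 of 8 (119 to 152 CPM against 154 to 537 CPM). Over all genes tested, 52.1% were higher in MERKO. The part of these markers in the results on the myogenic genes was not tested.

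None of the 8 genes was called as different between MERKO and control. The edgeR quasi-likelihood test, adjusted over all 13628 genes, called 0 of 8, where 0.00734% of all genes tested were called, and DESeq2 and limma-voom also called 0 of 8. At an unadjusted p under 0.05 there were 0 of 8 in the main edgeR fit, against 7.04% of all genes. DESeq2 had 0 of 8 and limma-voom 1 of 8, Pax7. Some other edgeR settings put Pax7 or Myf6 under this threshold, as given at the end. The fold changes were split evenly, with 4 genes higher and 4 lower in MERKO and a median log2 fold change of -0.015, beside 0.011 over all genes tested. In 1 of 8 genes, Myf6, the groups did not overlap in CPM, against 13.3% of all genes in either direction and 7.10% in the lower direction.

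**Figure D1:**
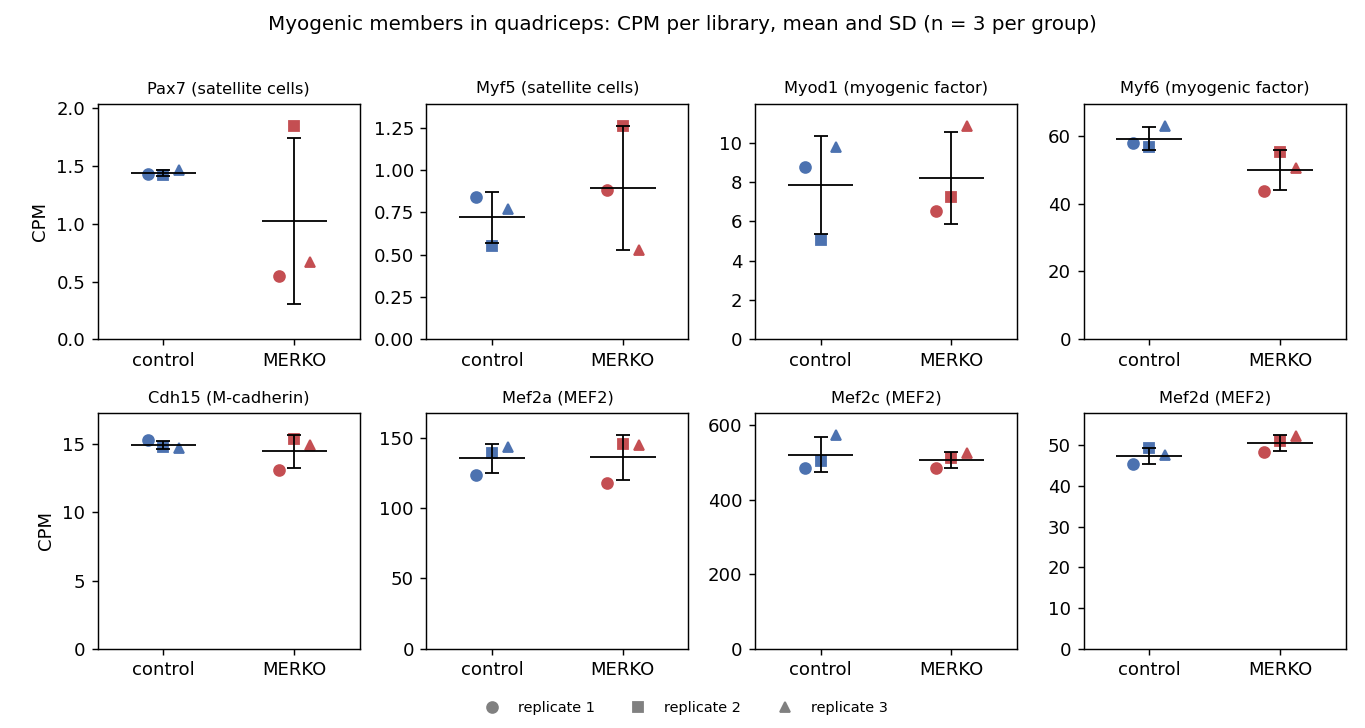
CPM of the 8 genes in each library (vertical axes start at 0, with a scale of their own per gene), with replicates by symbol and the mean and SD of 3 libraries per group as bars. Myf6 is the gene in which all 3 MERKO libraries lie below all control libraries, and Pax7 in MERKO has 1 library near 1.85 CPM and 2 below 0.7 CPM.

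The levels fell into 3 tiers when counts were scaled by the merged length of all annotated exons. On this scale Myf6 stood highest in control muscle, at 46.8 ± 2.69 CPM per kilobase (SD, n = 3), above 96.6% of the genes tested. Mef2c followed at 33.2 ± 3.01 CPM per kilobase, above 95.2% of them. Mef2a stood at 9.21 ± 0.72, Mef2d at 7.93 ± 0.34, Cdh15 at 4.6 ± 0.091 and Myod1 at 4.23 ± 1.34 CPM per kilobase. The satellite cell genes Myf5 and Pax7 were far lower, at 0.35 ± 0.072 and 0.25 ± 0.0046 CPM per kilobase, above 15.2% and 10.2% of the genes tested. Neighbours in this order kept their place in 6 of 6 libraries, except Mef2a above Mef2d in 5 of 6 and Cdh15 above Myod1 in 3 of 6. Cdh15 and Myod1 overlapped in both groups, while Mef2a and Mef2d, and Myf5 and Pax7, overlapped in MERKO. The mean levels of the MERKO libraries had the same order, from 39.5 ± 4.59 CPM per kilobase for Myf6 to 0.17 ± 0.12 for Pax7. The order and the tiers depend on the length used. Merged exons hold 1263 bases for Myf6 and 15715 for Mef2c, against coding lengths of 726 and 1571. Without length scaling, Mef2c stood at 521, Mef2a at 135 and Myf6 at 59.1 CPM in control.

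Pax7 (ENSMUSG00000028736.13, GRCm38 chromosome 4, 139737062 to 139833528, minus strand, protein coding) is the defining gene of satellite cells. Its counts were 18, 22 and 14 for MERKO 1 to 3, and 34, 18 and 80 for control 1 to 3. On the CPM scale these were 0.55, 1.85 and 0.67 in MERKO and 1.43, 1.42 and 1.47 in control. The control libraries lay close together, whereas MERKO 1 and MERKO 3 were below them and MERKO 2 was above them. Exact Poisson intervals (95%, counting error alone) ran from 0.32 to 0.86 CPM in MERKO 1, from 0.37 to 1.13 CPM in MERKO 3 and from 1.16 to 2.80 CPM in MERKO 2. On this scale the MERKO libraries differed among themselves by more than counting error. The intervals take the library scaling as exact, and the TMM factor was 0.75 for MERKO 2 against 1.24 and 0.94 for MERKO 1 and MERKO 3. The log2 fold change was -0.63 (SE 0.45, 95% interval -1.66 to 0.41, adjusted p = 0.767, edgeR). It was -1.24 without MERKO 2 (adjusted p = 0.780) and -0.27 without MERKO 1, so the size of this difference rested on single libraries, and it was -0.92 in limma-voom (adjusted p = 0.612). MERKO 2 was also the library in which the ribosomal RNA gene model took 32.4% of counts, and the part of this in its Pax7 level was not tested.

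Myf5 (ENSMUSG00000000435.1, chromosome 10, 107482908 to 107486134, minus strand) is expressed in most satellite cells and is known for marking cells committed to the muscle lineage. It had 29, 15 and 11 counts for MERKO 1 to 3, and 20, 7 and 42 counts for control 1 to 3. These gave 0.88, 1.26 and 0.53 CPM among MERKO and 0.84, 0.55 and 0.77 CPM in control, with overlapping groups. Its log2 fold change was 0.22 (SE 0.38, 95% interval -0.66 to 1.1, adjusted p = 0.910, edgeR), and -0.032 without MERKO 2. The highest library of both Pax7 and Myf5 was MERKO 2, and the lowest Myf5 library was MERKO 3. These values rest on 7 to 42 counts per library.

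Cdh15 (ENSMUSG00000031962.6, chromosome 8, 122847966 to 122867397, plus strand), which holds satellite cells and myoblasts to the fibre, was the steadiest of the satellite cell genes. It stood at 13.1, 15.4 and 15.0 CPM for MERKO 1 to 3, and at 15.3, 14.8 and 14.7 CPM for control 1 to 3, from 183 to 802 counts. MERKO 1 was the lowest library and the other 5 lay within 14.7 and 15.4 CPM. The log2 fold change was -0.049 (SE 0.10, 95% interval -0.29 to 0.19, adjusted p = 0.931, edgeR), and 0.021 without MERKO 1. As a ratio of MERKO to control this is 0.97, with an interval from 0.82 to 1.14. MERKO 2 was the highest library for Cdh15 as for Pax7, and MERKO 1 the lowest for both.

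Other markers of satellite cells spanned a wide range of levels. Itga7, an integrin that muscle fibres also carry, stood at 59.9 ± 3.69 CPM over MERKO and 53.5 ± 4.86 CPM over control, and Cd34, which endothelium also carries, at 60.5 ± 10.3 and 52.0 ± 5.6 CPM. Desmin (Des), a filament protein of the fibres, ranged from 1991 to 2307 CPM. Calcr, Vcam1 and Chodl were lower. Calcr, the calcitonin receptor of quiescent satellite cells, had 6, 1 and 14 counts in MERKO and 8, 5 and 29 counts in control and was not tested. In CPM these were 0.18, 0.084 and 0.67 in MERKO and 0.34, 0.39 and 0.53 in control, with overlapping groups. Vcam1, an adhesion molecule that endothelium also carries, stood at 3.73 ± 0.39 CPM among MERKO and 4.0 ± 0.38 CPM among control libraries (edgeR estimate of the log2 fold change -0.099, SE 0.17). Chodl, a membrane lectin, stood at 12.3, 8.84 and 5.53 CPM for MERKO 1 to 3, and 7.48, 3.16 and 5.72 CPM for control 1 to 3 (edgeR estimate of the log2 fold change 0.68, SE 0.34, adjusted p 0.713). The groups overlapped for Vcam1 and Chodl, and the direction of Chodl was opposite to that of Pax7.

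Myod1 (ENSMUSG00000009471.4, chromosome 7, 46376474 to 46379099, plus strand), the factor that drives satellite cells into the muscle programme on activation, varied more between libraries than between groups. Its levels were 6.54, 7.24 and 10.9 CPM for MERKO 1 to 3, and 8.78, 5.05 and 9.78 CPM for control 1 to 3, from 64 to 532 counts. In both groups replicate 3 was the highest library, and the lowest were MERKO 1 and control 2. The log2 fold change was 0.032 (SE 0.27, 95% interval -0.59 to 0.65, adjusted p = 0.988, edgeR). Its sign turned with the library left out, from -0.22 without MERKO 3 to 0.24 without both libraries numbered 1, and it was -0.079 in limma-voom and -0.13 without a composition factor. Myog, which follows Myod1 in differentiating myoblasts, stood at 1.92, 2.53 and 2.94 CPM among MERKO and 2.35, 3.31 and 2.78 CPM among control libraries (edgeR estimate of the log2 fold change -0.19, SE 0.24, adjusted p 0.869).

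Myf6 (ENSMUSG00000035923.3, chromosome 10, 107492853 to 107494737, minus strand) was the gene in which the groups separated. It stood at 43.8, 55.3 and 50.6 CPM for MERKO 1 to 3, and at 57.8, 56.7 and 63.0 CPM for control 1 to 3, from 657 to 3429 counts. The highest MERKO library, at 55.3 CPM, was just below the lowest control library, at 56.7 CPM. Its log2 fold change was -0.25 (SE 0.11, 95% interval -0.50 to 0.0014, adjusted p = 0.706, edgeR), which is a ratio of 0.84 with an interval from 0.71 to 1.00. The value was -0.16 without MERKO 1, the lowest library, and -0.32 without MERKO 2. It was -0.20 without control 3, the highest library, in which the ribosomal RNA gene model took 0.0433% of counts. The summed markers of fast 2B fibres were also lowest in MERKO 1, at 52608 CPM, against 73962 to 105095 CPM in the other 5 libraries. The 2 measures did not run together in the other libraries. The highest sum was in MERKO 2, whose Myf6 was below every control library. Control 1 had a sum of 73962 CPM and control 2 of 99422 CPM, with Myf6 at 57.8 and 56.7 CPM. The part of fibre type or of ribosomal RNA reads in the Myf6 level was not tested.

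Myf6 and Myf5 are neighbours on the minus strand of chromosome 10, with 6718 bases between them, and Myf6 is the upstream gene. Their levels were unlike. In control libraries Myf6 made up 87.9% ± 1.46 of the summed CPM per kilobase of the 4 myogenic regulatory factors (SD, n = 3), Myod1 7.86% ± 2.11, Myog 3.55% ± 0.77 and Myf5 0.65% ± 0.12. In MERKO libraries the shares were 85.9% ± 2.34 for Myf6, 9.58% ± 2.28 for Myod1, 3.56% ± 0.46 for Myog and 0.93% ± 0.36 for Myf5. The highest Myod1 share, 12.1%, was in MERKO 3, which also had the lowest Myf6 share, 83.3%. These shares overlapped between the groups for all 4 genes.

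**Figure D2:**
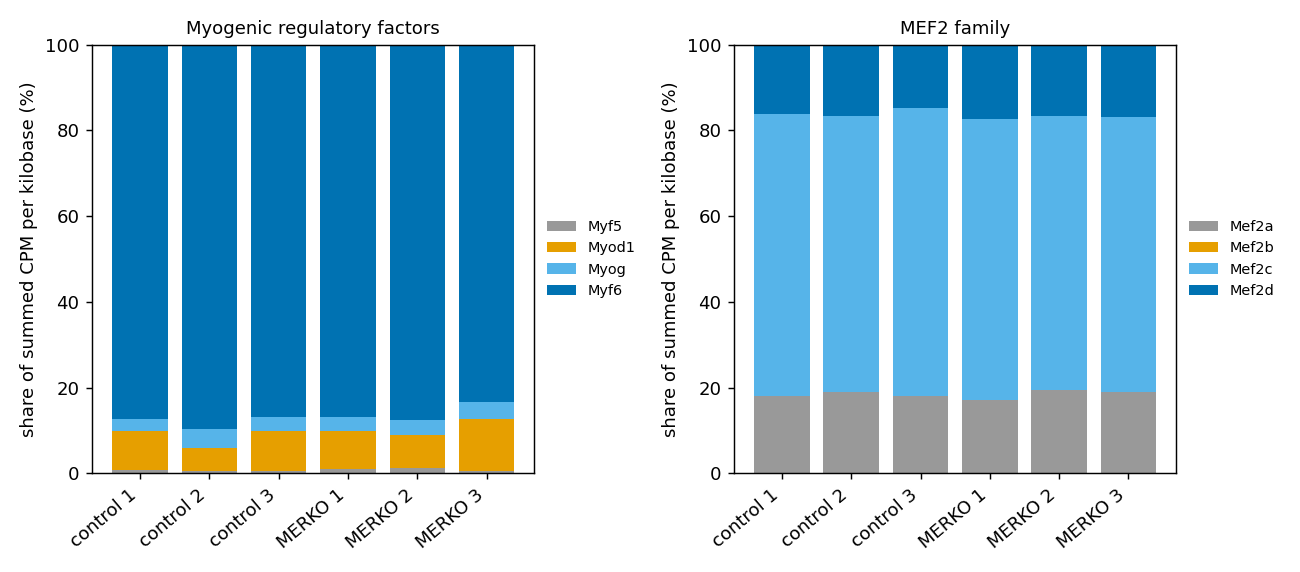
Share of each gene in the summed CPM per kilobase of its family, per library (stacked bars, percent). Myf6 takes 83.3% to 89.6% of the myogenic regulatory factors and Mef2c 63.8% to 67.3% of the MEF2 family, in both groups.

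Because the knocked-out gene encodes a transcription factor, the promoters of the 8 genes were searched for its motif and for the motifs of the myogenic and MEF2 proteins. RefSeq windows of the GRCm38.p6 build, 250 bases before to 50 bases after a start site, matched 6 of the 8 genes in 8 windows, of which Mef2c has 3. Myod1 and Myf6 have no entry in the table used. Both strands were searched. A full estrogen response element (GGTCA and TGACC separated by any 3 bases) was in 0 of 8 windows and in 0.0701% of 32817 promoter windows. The half-site GGTCA, which the full element contains, was in 3 of 8 windows (1 of Myf5, 2 of Mef2c), against 40.5% of all windows. Window 3 of Mef2c held it 2 times, and 10.8% of all windows held it at least 2 times. The E-box CANNTG, the site of myogenic factors, was in 3 of 8 windows (Cdh15 and 2 of Mef2c), against 72.3% of all, and Cdh15 held 4, where 6.49% of windows held at least 4. The MEF2 motif was in 1 of 8 windows, that of Mef2a, across its annotated start site, against 3.19% of all. A match is a run of letters and not evidence of binding, and these data hold no measure of binding.

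A stretch of each of 3 windows shows these matches in genes of the MEF2 family, since it is there that the matches to the estrogen, E-box and MEF2 motifs fall outside or at the edge of annotated exons. They are written 5′ to 3′ on the strand of the gene, with matches on either strand in capitals. The first is from the Mef2a window (chr7:67372851-67372958, minus strand) and has the MEF2 motif in capitals. The next is from window 1 of Mef2c (chr13:83503784-83504033, plus strand), with 2 E-boxes. The last is from window 3 of Mef2c (chr13:83573457-83573606, plus strand), with 2 estrogen half-sites read as TGACC on this strand.
Mef2a, MEF2 motif: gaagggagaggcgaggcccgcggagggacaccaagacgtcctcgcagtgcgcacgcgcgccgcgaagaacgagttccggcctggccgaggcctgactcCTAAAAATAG
Mef2c window 1, E-boxes: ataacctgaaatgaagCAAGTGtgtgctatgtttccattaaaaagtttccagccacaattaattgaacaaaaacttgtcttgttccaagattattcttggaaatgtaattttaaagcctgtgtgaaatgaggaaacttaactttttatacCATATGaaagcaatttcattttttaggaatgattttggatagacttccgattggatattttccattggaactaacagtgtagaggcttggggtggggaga
Mef2c window 3, half-sites: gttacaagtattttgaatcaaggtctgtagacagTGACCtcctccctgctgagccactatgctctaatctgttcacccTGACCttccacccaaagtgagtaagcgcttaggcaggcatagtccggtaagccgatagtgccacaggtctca
Mef2a and Mef2c, the genes of these sequences, had log2 fold changes of 0.0084 and -0.038 in muscle with Esr1 reduced, with the intervals given beside their levels. Gene counts do not tell the starts of Mef2c apart.

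Mef2c (ENSMUSG00000005583.16, chromosome 13, 83504034 to 83667080, plus strand), the most abundant MEF2 gene here, is known for its part in sarcomere assembly and fibre type. It stood at 484, 513 and 526 CPM for MERKO 1 to 3, and 485, 505 and 575 CPM for control 1 to 3. Replicate 1 was lowest and replicate 3 highest in both groups, which overlapped. The log2 fold change was -0.038 (SE 0.12, 95% interval -0.31 to 0.23, adjusted p = 0.955, edgeR), and 0.038 without control 3. Genes of other tissues known for high Mef2c, namely heart, neurons and lymphoid cells, were near 0: the 11 listed genes summed to between 0.94 and 2.89 CPM, and 10 of them did not pass the filter. Endothelial markers summed to between 184 and 276 CPM over 10 genes.

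Mef2a (ENSMUSG00000030557.17, chromosome 7, 67231163 to 67372858, minus strand) is known for activating muscle structural and metabolic genes. Its levels were 118, 145 and 145 CPM for MERKO 1 to 3, and 123, 139 and 143 CPM for control 1 to 3. As with Mef2c, both libraries numbered 1 were the lowest of their group. Its log2 fold change was 0.0084 (SE 0.12, 95% interval -0.26 to 0.28, adjusted p = 0.992, edgeR), -0.035 without MERKO 2 and -0.13 without a composition factor. The antisense gene Lysmd4 shares 302 exon bases with it, 2.06% of its exons, and had 81 to 418 counts against at least 1728 for Mef2a.

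Mef2d (ENSMUSG00000001419.17, chromosome 3, 88142372 to 88172086, plus strand), which has a muscle-specific splice form that gene counts cannot show, had the narrowest interval of the 8. It stood at 48.5, 51.0 and 52.4 CPM for MERKO 1 to 3, and at 45.3, 49.3 and 47.7 CPM for control 1 to 3. The lowest MERKO library lay between the control libraries. The log2 fold change was 0.094 (SE 0.085, 95% interval -0.10 to 0.29, adjusted p = 0.820, edgeR), and -0.023 without a composition factor, a setting that moved the median of all genes from 0.011 to -0.10. As a ratio of MERKO to control the interval runs from 0.93 to 1.22. The antisense gene 1700113A16Rik shares 531 exon bases with Mef2d, 8.87% of its exons, and had 1 to 15 counts. Mef2b, the fourth gene of the family, had 0 or 1 count per library and was not tested.

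The MEF2 shares were close in both groups. Mef2c made up 65.9% ± 1.42 of the summed CPM per kilobase in control and 64.6% ± 0.96 in MERKO (SD, n = 3 each). The share of Mef2a was 18.3% ± 0.59 and 18.5% ± 1.23. For Mef2d it was 15.8% ± 0.99 in control and 16.9% ± 0.31 in MERKO, where the lowest MERKO library, at 16.7%, lay just above the highest control library, at 16.5%. In CPM, the groups did not overlap in 13.3% of all genes tested, and no such figure was computed for family shares. Merged exons overstate the length of any 1 transcript of Mef2a and Mef2c, which carry 14681 and 15715 bases of annotated exons, so the size of the shares depends on the length used. By coding length, Mef2d held 6.42% in control and 6.93% in MERKO, and the order of the family was the same.

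**Figure D3:**
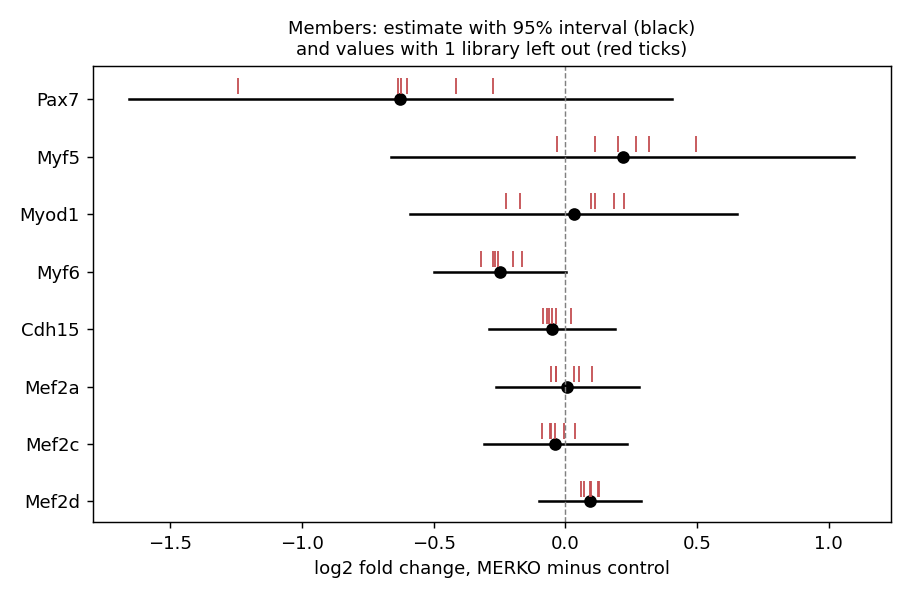
Log2 fold change of MERKO minus control for the 8 genes (horizontal axis), with the 95% interval of the edgeR fit in black and the estimates with each of the 6 libraries left out as red ticks. The intervals of Cdh15, Mef2a, Mef2c and Mef2d stay within -0.31 and 0.29, whereas that of Pax7 runs from -1.66 to 0.41.

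Ratios within a library do not depend on library scaling, and Myf6 was therefore set against each MEF2 gene, a comparison chosen after the Myf6 values were seen. Per 100 Mef2a counts there were 37.2, 38.0 and 34.9 Myf6 counts for MERKO 1 to 3, and 46.9, 40.8 and 44.0 for control 1 to 3. All MERKO libraries lay below all control libraries, which held for 5.56% of the genes tested when divided by Mef2a. Per 100 Mef2c counts, Myf6 had 9.04, 10.8 and 9.62 counts in MERKO and 11.9, 11.2 and 10.97 in control, again without overlap (5.06% of genes). Against 100 Mef2d counts the values were 90.3, 108 and 96.6 in MERKO and 127, 115 and 132 in control, also without overlap (15.2% of genes). None of the ratios of Pax7, Myf5, Myod1 or Cdh15 to these 3 genes separated the groups. The ratios share the Myf6 counts, so they are not independent of each other or of the CPM values.

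A different reference removed the separation of Myf6. Relative to 1000 CPM of the summed structural and metabolic target genes, such as Acta1 and Ckm, Myf6 stood at 0.51, 0.50 and 0.46 for MERKO 1 to 3, and 0.54, 0.52 and 0.49 for control 1 to 3, and the groups overlapped (mean log2 difference -0.072). The summed level of these 42 genes was 85684 CPM in MERKO 1 whereas the other 5 libraries ranged from 107505 to 127358 CPM. On this scale the MEF2 genes lay higher in every MERKO library than in any control library, which held for 13.0% of genes. Mef2a stood at 1.37, 1.31 and 1.33 in MERKO and 1.15, 1.27 and 1.13 in control. For Mef2c the values were 5.65, 4.63 and 4.82 in MERKO and 4.51, 4.61 and 4.51 in control, and for Mef2d 0.57, 0.46 and 0.48 against 0.42, 0.45 and 0.37. The mean log2 differences of Mef2a, Mef2c and Mef2d were 0.18, 0.14 and 0.27, so whether Myf6 or the MEF2 genes separated the groups depended on the reference. This scale was chosen after the data were seen and was given no test.

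**Figure D4:**
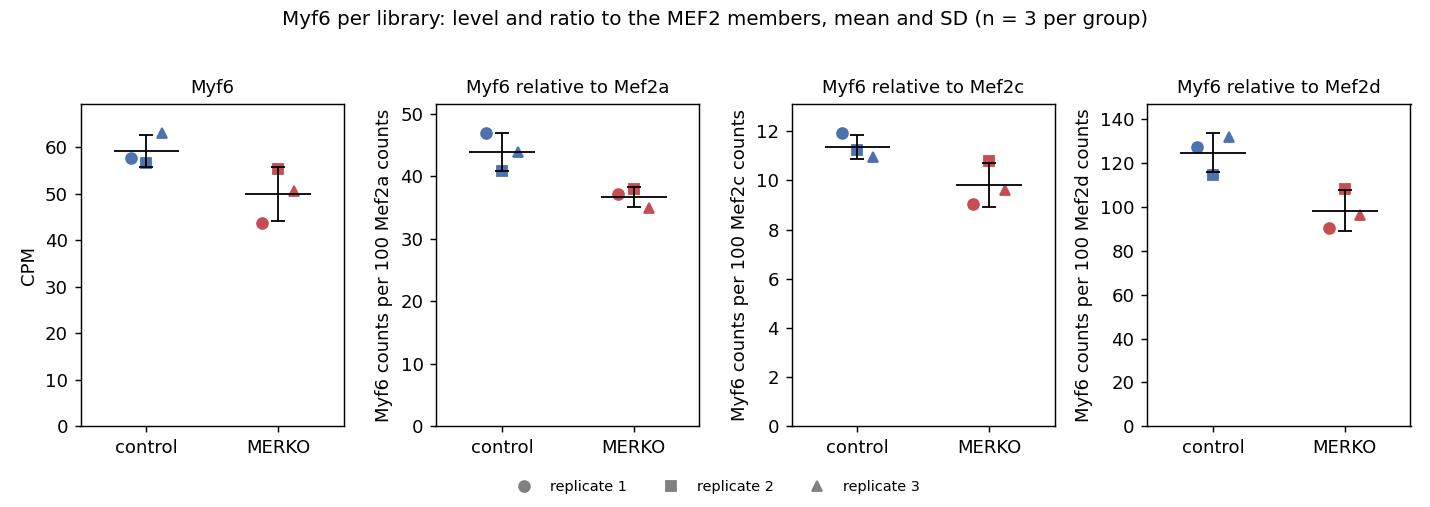
Myf6 in each library as CPM and as counts per 100 counts of Mef2a, Mef2c and Mef2d (vertical axes start at 0), with the mean and SD of 3 libraries per group. In all 4 panels the MERKO libraries lie below the control libraries, by the smallest gap in the ratio to Mef2c, relative to the values, at 10.8 against 10.97.

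The partners and regulators of these factors were examined as lists, chosen with earlier results of these data known. Of 162 genes beside the 8, 149 were tested, 98 were higher and 51 lower in MERKO, and 0 were called by edgeR. Over all genes tested, 52.1% were higher, the share to set beside the counts of each list below. Some genes, such as Pax3, are in more than 1 list. Their median log2 fold change was 0.099, beside 0.011 over all genes. At an unadjusted p under 0.05 there were 14 of 149, or 9.40%, beside 7.04% of all genes, and in 24 of 149, or 16.1%, the groups did not overlap, beside 13.3%. DESeq2 also called 0 of them. Among the genes named below, edgeR without the filter on low counts called Vgll4 and Xirp1, and without a composition factor it called Myh3.

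Satellite cell markers and niche receptors were higher in 19 of 25 tested genes (median 0.16), a list that holds Myf5 among the higher and Pax7 and Cdh15 among the lower genes. Pax3, the paralogue of Pax7 that is kept in satellite cells of some muscles, had 41, 11 and 23 counts for MERKO 1 to 3, and 6, 4 and 32 counts for control 1 to 3. These gave 1.25, 0.93 and 1.11 CPM among MERKO and 0.25, 0.32 and 0.59 CPM in control, without overlap. The log2 fold change of Pax3 was 1.39 (SE 0.39, 95% interval 0.50 to 2.28, adjusted p = 0.654, edgeR), against -0.63 for Pax7. Sdc3, a heparan sulphate proteoglycan of satellite cells and nerve, stood at 8.69 ± 2.91 CPM among MERKO and 4.85 ± 0.73 CPM among control libraries (edgeR estimate of the log2 fold change 0.82, SE 0.24, adjusted p 0.654), and at 0.51 on the log2 scale without MERKO 3. Schwann cell markers were higher in the same group, as given above, and their part in Sdc3 was not tested.

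The E-proteins, with which myogenic factors dimerise, were higher by small amounts in 3 of 3 genes. The groups overlapped in all 3, and the lowest adjusted p was 0.715 (edgeR). Tcf4 stood at 60.9 ± 5.67 CPM among MERKO and 53.9 ± 3.86 CPM among control libraries (edgeR estimate of the log2 fold change 0.18, SE 0.10), and Tcf3 at 9.37 ± 0.47 and 8.50 ± 1.13 CPM (0.15, SE 0.13). Inhibitors of the myogenic and MEF2 factors were higher in 14 of 18 (median 0.14), and the groups did not overlap in 6 of 18, all higher in MERKO, beside 13.3% of all genes in either direction. Twist1, a helix-loop-helix protein that blocks myogenic factors, stood at 1.92, 4.71 and 1.01 CPM among MERKO and 0.67, 0.95 and 1.53 CPM in control, and its log2 fold change of 1.14 (SE 0.56, adjusted p = 0.713, edgeR) was 0.46 without MERKO 2. Snai2, a zinc-finger repressor of E-boxes, stood at 0.84 ± 0.17 and 0.40 ± 0.23 CPM (0.88, SE 0.44), and at 1.59 on the log2 scale without control 3.

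Kinases and coactivators of MEF2 were higher in 11 of 20 genes (median 0.074). Vgll4, a cofactor of TEAD proteins, stood at 12.8, 15.7 and 13.3 CPM among MERKO and 15.7, 24.1 and 26.6 CPM among control libraries (edgeR estimate of the log2 fold change -0.67, SE 0.20, adjusted p 0.654). Mamstr, also named MASTR, a coactivator that binds MEF2 proteins, was at 11.6, 15.7 and 15.8 CPM among MERKO and 8.32, 11.05 and 10.9 CPM in control, without overlap (edgeR estimate of the log2 fold change 0.50, SE 0.17, adjusted p 0.671). The upstream regulators of myogenic factors were higher in 17 of 24 genes (median 0.10).

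Genes of myoblast fusion were higher in 11 of 15 (median 0.25). Mymk, the fusogen that adult fibres lack, had 4, 0 and 2 counts in MERKO and 0 in each control library, and was not tested. Boc, a receptor that promotes myogenic differentiation, stood at 9.74 ± 2.05 CPM among MERKO and 6.93 ± 0.69 CPM among control libraries (edgeR estimate of the log2 fold change 0.49, SE 0.17, adjusted p 0.680) and at 0.29 on the log2 scale without MERKO 1. Dock1, a guanine nucleotide exchange factor for Rac1, stood at 16.9 ± 1.20 and 14.2 ± 1.34 CPM (0.25, SE 0.11). Neither passed the test. The MERKO libraries lay above the control libraries in both, which were named for the lowest p in this list. This held for 2 of 15 tested genes of the list, and the groups did not overlap in 13.3% of all genes in either direction.

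Genes of regeneration and proliferation were higher in 9 of 12 tested genes (median 0.35), and their summed level ran from 43.4 to 49.5 CPM among MERKO and from 36.4 to 38.6 CPM in control. Ccnd1, a cyclin of the G1 phase, stood at 7.54, 5.64 and 6.11 CPM among MERKO and 2.86, 3.47 and 4.61 CPM among control libraries (edgeR estimate of the log2 fold change 0.81, SE 0.21, adjusted p 0.654). Mki67, the Ki-67 gene of cycling cells, stood at 2.13, 2.95 and 2.84 CPM among MERKO and 0.71, 0.71 and 1.62 CPM among control libraries (1.25, SE 0.36, adjusted p = 0.654), and at 1.86 on the log2 scale without control 3. Both genes, named for the lowest p in this list, separated the groups without passing the test. The groups did not overlap in 3 of 12 tested genes of the list, beside 13.3% of all genes in either direction. Cycling cells of any type in the muscle would give the transcripts of Ccnd1 and Mki67. The embryonic myosin Myh3, a mark of new fibres, had 119, 9 and 12 counts in MERKO and 34, 1 and 3 in control, so it was high in both libraries numbered 1, those with the most slow fibre transcripts.

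Structural and metabolic targets of the myogenic and MEF2 proteins were higher in 18 and lower in 24 of 42 genes (median -0.037). Ckm, muscle creatine kinase and a classical target of both families, stood at 17915 ± 3451 CPM among MERKO and 21229 ± 2049 CPM among control libraries (edgeR estimate of the log2 fold change -0.24, SE 0.30), and Acta1, skeletal actin, at 21497 ± 1411 and 22621 ± 1881 CPM (-0.073, SE 0.28). Xirp1, a MEF2 target at fibre junctions, stood at 147, 66.5 and 77.4 CPM among MERKO and 69.8, 50.3 and 41.5 CPM among control libraries (edgeR estimate of the log2 fold change 0.85, SE 0.31, adjusted p 0.680), which was 0.42 without MERKO 1. Tnnt2, the cardiac troponin T that immature fibres also express, stood at 1.01 ± 0.50 and 0.51 ± 0.11 CPM (1.00, SE 0.47, and 0.66 without MERKO 1). Acta1 and Ckm were named as the most familiar of these targets, outside the rule for naming genes.

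**Figure D5:**
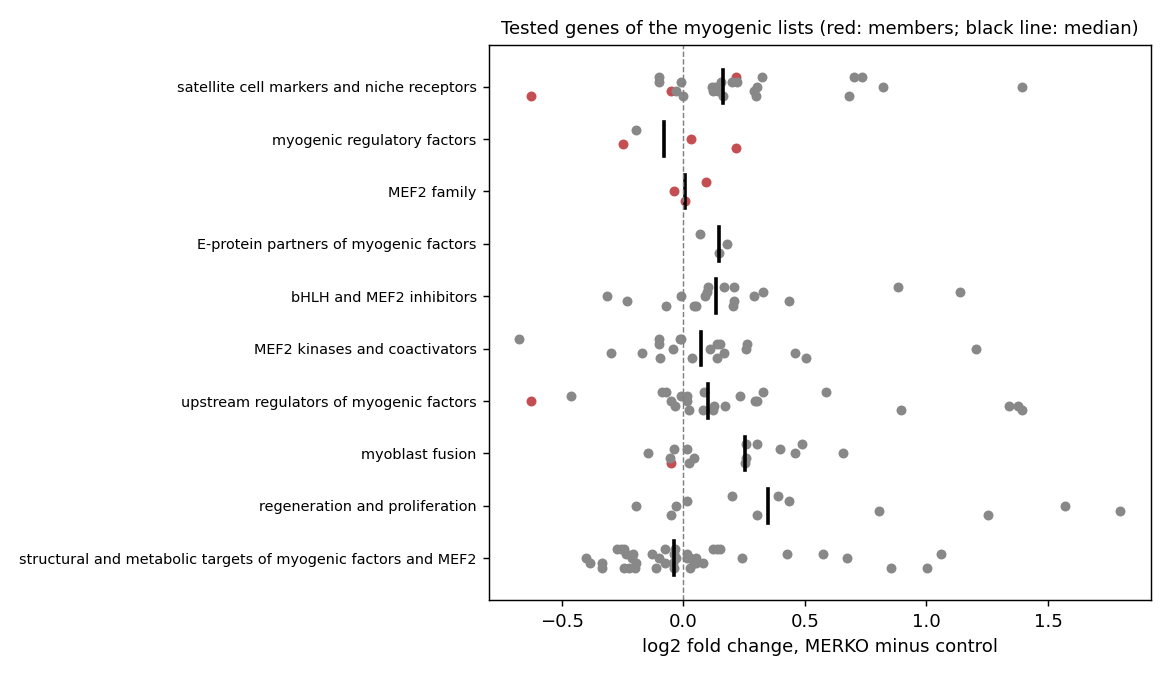
Log2 fold change of MERKO minus control (horizontal axis) for every tested gene of the 10 myogenic lists, with the 8 genes in red, others in grey and the median of each list as a black line. List medians lie between -0.081 and 0.35, and edgeR called no gene shown.

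Genes whose pattern over the 6 libraries was most like each of the 8 were taken by Pearson correlation of log2 CPM among up to 6997 genes with a symbol and an average log2 CPM of at least 3, which left out Pax7 and Myf5 as candidates. The closest to Myf6 were Ryk, a receptor of Wnt ligands (r = 0.996), and Jagn1 (0.994). Pax7 was closest to Mon1a and AI837181 (0.980 and 0.978), and Myf5 to Map1lc3a and Aldh7a1 (0.985 and 0.981). For Myod1 the closest were Dnajb11 and Ywhah (0.980 and 0.967), and for Cdh15 Trappc8 and Fbxw5 (0.996 and 0.984). Mef2a was closest to Cep170b and Igfbp5 (0.996 and 0.990), Mef2c to Get4 and Nol3 (0.989 and 0.986), and Mef2d to Map1s and Parp14 (0.979 and 0.974). These are the highest of many values over 6 points that share library depth and composition, and are given as a description.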

How the data were processed

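The authors deposited raw read counts per Ensembl gene, 1 column per library, and all 6 columns matched a sample label. Tools named per the submitters' processing notes were STAR 2.5.2b and HTSeq 0.9.1, with DESeq and the builds mm10 and GRCm38. For strand setting, annotation release and multi-mapped reads, the step used was not given in the sources used here. Symbols were found for 48435 identifiers, and positions and exon lengths were taken from GENCODE M21.

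Genes kept by filterByExpr were scaled by TMM and tested over all 13628 genes with the quasi-likelihood test of edgeR 4.0.16 (R 4.3.3), genotype being the only term. Adjusted p-values are Benjamini-Hochberg values with a threshold of 0.05, and the code was tested on simulated counts. The biological coefficient of variation was 18.6%. Alternatives were DESeq2 1.42.0, limma-voom (limma 3.58.1), RLE or no composition factors, other filters, a robust prior, removal of rRNA and mitochondrial DNA genes, a replicate block and leaving out libraries. The 8 genes and all lists were chosen with earlier results of these data known. All 8 are named, with Esr1, the 2 other genes of lowest p in each list and the 2 genes most alike in pattern. A gene that this rule would name is not reported here. Further genes (Chodl, Vcam1, Calcr, Itga7, Cd34, Des, Mef2b, Myh3, Mymk, Ckm and Acta1) are named outside that rule. Log2 CPM used a prior count of 2.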

Additional observations from a re-analysis of the deposited data

How the results depend on the processing

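The count of 0 called genes among the 8 was the same in all 17 alternatives of the comparison, with 7 of the 8 tested under the filter of at least 1 CPM in 3 libraries. The count over all genes was 1 and moved to 23 with DESeq2, to 93 (44 higher, 49 lower) without a composition factor and to 140 (86 higher, 54 lower) without a filter, and it ran from 0 to 11 when libraries were left out. With the replicate number as a block (replicate block) it was 51 (31 higher, 20 lower), and Myf6 had a log2 fold change of -0.26 with an adjusted p of 0.306, while Xirp1 passed at 0.0427. The labels do not say whether equal numbers pair the libraries, and the correlations do not settle it. Deviations from the group means correlated at 0.45, 0.16 and 0.061 for numbers 1 to 3 over genes. MERKO 2 correlated best with control 3, at 0.18, and MERKO 3 with control 2, at 0.14. Pax7 and Myf6 were lower in MERKO in every setting run. In edgeR, Myf6 had an unadjusted p of 0.047 with the robust prior and 0.022 with the replicate block. Pax7 and Myf6 had 0.0058 and 0.026 without MERKO 2, and 0.012 and 0.042 without MERKO 2 and control 2 (unadjusted, edgeR). Signs turned for 6 of the 8 genes. With libraries left out the log2 fold change ran from -0.090 to 0.039 for Cdh15, -0.055 to 0.10 for Mef2a, -0.089 to 0.038 for Mef2c, -0.15 to 0.50 for Myf5 and -0.22 to 0.24 for Myod1. Without a composition factor it was -0.13 for Mef2a, -0.023 for Mef2d and -0.13 for Myod1. Mef2a was at -0.00085 in DESeq2 and Myod1 at -0.079 in limma-voom. Relative to the summed structural genes, a scale chosen after the data were seen, it was 0.13 for Cdh15 and 0.14 for Mef2c. The cause of these turns was not tested. Shares by coding length put Mef2c at 75.3% and Mef2d at 6.42% of the MEF2 family in control. Pax7 and Myf5 rest on 7 to 80 counts per library, and counting error and the spread between libraries both enter their intervals.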
